A study of Mus musculus with 8 samples.

Results

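The serpins are a superfamily of protease inhibitors and related proteins, and 64 of the 25239 genes in the liver count table carry a serpin symbol with a clade letter from a to i and a number. All 64 were taken as members by that symbol pattern alone. The libraries came from livers of adult male mice, 4 in each of 2 groups. The knockout mice were Zfp36l1 fl/fl with Alb-Cre+, so that Cre recombinase, driven in hepatocytes by the albumin promoter, deletes the loxP-flanked allele of the RNA-binding protein gene Zfp36l1. The control mice carried the same fl/fl alleles without the Cre transgene, and a second label calls them WT. The effects of Cre and of the deletion cannot be told apart. The labels number the libraries 1 to 4 in each group without saying whether a library stands for 1 mouse, so p-values measure only the spread between these libraries.

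Most serpins work as single-use traps. A protease cleaves an exposed stretch called the reactive centre loop, the loop inserts into the body of the serpin, and the protease is dragged along and inactivated as a covalent complex that receptors then remove. The sequence of the loop decides which proteases are caught. Hepatocytes secrete the serpins that control coagulation, fibrinolysis, complement and neutrophil proteases in plasma, while clade B serpins mostly stay inside cells. Some members inhibit no protease and carry hormones, chaperone collagen or act as signalling proteins instead.

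Total counts ranged from 120200618 to 140582588 in knockout libraries and from 104842873 to 132017092 in control libraries. Levels are library-scaled counts (CPM) after TMM normalisation, given as mean ± SD over 4 libraries where a mean is given. A fold change is the log2 of knockout over control and has its standard error (SE) beside it. Adjusted p-values came from the quasi-likelihood test of edgeR, corrected by Benjamini-Hochberg over 14861 tested genes, with a threshold of 0.05. The targeted gene Zfp36l1 had 76.9, 57.9, 67.2 and 58.3 CPM in knockout libraries 1 to 4, against 263.4, 236.6, 323.5 and 212.1 CPM in control libraries 1 to 4, so every knockout library lay below every control library. The difference was −1.99 on the log2 scale (SE 0.14, adjusted p = 0.000309). A two-sided exact permutation test, with 70 assignments of the libraries, gave p = 0.0286, its smallest possible value. All 6 hepatocyte markers examined were present, with summed levels of 96700 to 117000 CPM in knockout libraries and 81800 to 90400 CPM in control libraries. The sum was thus higher in every knockout library than in every control library, with 0 of the 6 past the threshold. The number 4 library of each group stood apart in acute phase genes, which hepatocytes raise in inflammation: serum amyloid Saa1 had 14.1, 11.6, 7.79 and 277.7 CPM in knockout libraries 1 to 4, against 27.0, 17.2, 10.5 and 456.6 CPM in control libraries 1 to 4. Results that rest on those libraries are therefore also given without both of them.

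Of the 63 members found by symbol in the GENCODE M21 annotation of mm10, 24 lay on chromosome 12, 15 on chromosome 13 and 14 on chromosome 1. The 6 Serpina1 genes lay between 103688044 and 103958975 on chromosome 12, and the 11 Serpina3 genes between 104112724 and 104414329. Humans have a single alpha-1-antitrypsin gene, where the mouse has several Serpina1 genes. The coding sequences of Serpina1a to Serpina1e were 96.3% to 98.5% identical in pairs, and those of the Serpina3 genes 69.3% to 91.6%. In an alignment of 1314 positions the 5 Serpina1 coding sequences differed at 155, and the 30-base stretch with the most differences, 13 of 30, lies in the part that encodes the reactive centre loop. These stretches are shown because they encode the part of the protein that sets which proteases a copy inhibits; most of the 155 differences lie outside them. Capitals mark the positions that vary among the 5 genes, and each is given 5′ to 3′ on the minus strand of chromosome 12 (mm10, chr12:103853786-103853815, chr12:103728353-103728382, chr12:103895123-103895152, chr12:103763791-103763820 and chr12:103947129-103947158 in the order printed), in coding exon sequence.
Serpina1a: gcagTtacagtcttACAaATGgTtCCtATG
Serpina1b: gcagCtacagtcttTGAaGCCgTtCCtATG
Serpina1c: gcagCtacagtcttACTaGCCgTtCCtTAT
Serpina1d: gcagCtacagtcttACAaGTCgCtACtTAT
Serpina1e: gcagCtacagtcttACAaGGCgGtTTtTTG
Elsewhere the copies are often identical. The share of 50-base windows of the annotated transcript found unchanged in another Serpina1 gene was 73.3% for Serpina1c, 60.0% for Serpina1a, 48.0% for Serpina1d, 35.6% for Serpina1e and 34.2% for Serpina1b, and 0% for Serpina1f. Among the Serpina3 genes it was highest for Serpina3m, at 19.1%, and 13.7% for Serpina3k. How the authors counted reads that match several copies is not given in the sources used here, so levels of single Serpina1 genes, and to a lesser degree of Serpina3 genes, are uncertain and group sums are given beside them.

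The serpins made up 2.26% to 2.95% of all counts in knockout libraries and 2.99% to 3.57% in control libraries. That difference rested on Serpina1e, which did not pass the test: without it the summed level of the other 63 was 24530 ± 2113 CPM in knockout livers and 23380 ± 2235 CPM in control livers, a ratio of 1.05 with overlapping groups, against 0.85 with it. Clade A, which holds the antitrypsin, antichymotrypsin and hormone carrier genes, took 81.8% to 85.3% of the family's counts in knockout libraries and 84.3% to 85.9% in control libraries. Clade B took 0.0933% to 0.14% and 0.0719% to 0.108% of them in knockout and control libraries. Of the 64 members, 39 passed the filter on low counts and were tested. Another 16 had no count in any library, which allows at most 0.0215 to 0.0277 CPM per library (3 counts, counting error only), and 9 had too few counts, between 2 and 45 over all libraries. Those 9 were Serpina16, Serpina1f, Serpinb1b, Serpinb2, Serpinb6c, Serpinb7, Serpinb9b, Serpinb9e and Serpinb10, which the annotation lists as a polymorphic pseudogene. The 16 were Serpini2 and 15 genes of clade B. Some of these share sequence with relatives, and for Serpinb9f 52.8% of 50-base windows were found in another Serpinb9 gene. The limit in CPM holds only if reads matching several copies were counted. It also takes each count as independent, although most low counts were even. The 39 tested members had at least 108 counts over the 8 libraries (Serpina3b), and the highest total left untested was 45 (Serpinb2). All but Serpina3b and Serpinb1c reached the filter's 0.0792 CPM in all 8 libraries.

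Levels of different genes were compared as CPM per kilobase of the deposited gene length. In control livers 13 members reached 100 CPM per kilobase, 5 lay between 10 and 100, 9 between 1 and 10, and 12 tested members were under 1. Serpina3k, which encodes the trypsin inhibitor contrapsin, and the antitrypsin gene Serpina1e headed the order in control livers, at 5680 ± 791 and 5600 ± 987 CPM per kilobase, and their ranges overlapped. Serpina1b followed at 2390 ± 217, Serpina1c at 1420 ± 199, Serpina1d at 1270 ± 131 and the antithrombin gene Serpinc1 at 879 ± 50.5 CPM per kilobase. Of the 38 pairs of neighbours in the order of control means, 9 had ranges that did not overlap and 29 did not differ beyond their spread. The separate pairs included Serpina1e over Serpina1b, Serpina1b over Serpina1c, Serpina1d over Serpinc1, and the thyroxine carrier gene Serpina7 over the adipokine gene Serpina12, whose control means were 45.5 ± 14.6 and 11.6 ± 4.37 CPM per kilobase. In knockout livers Serpina3k still averaged 6300 ± 912 CPM per kilobase, while Serpina1e averaged 1380 ± 1180 CPM per kilobase with widely spread libraries.

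**Figure D1:**
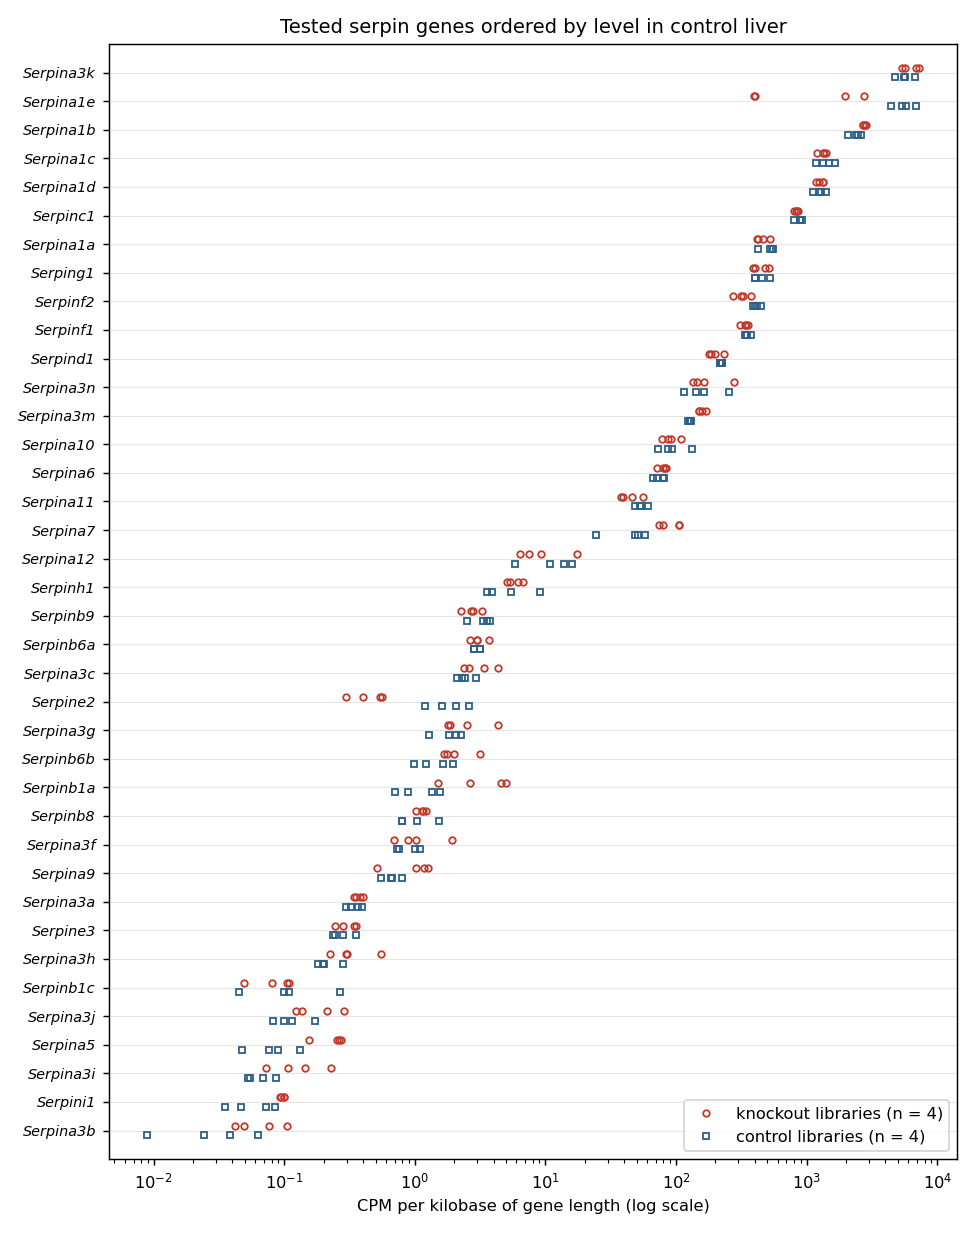
CPM per kilobase on a log axis for 38 of the 39 tested serpin genes, ordered from the highest mean level in control liver at the top; each symbol is 1 library, circles knockout and squares control (n = 4 each). Serpina1e and Serpine2 are the genes whose knockout libraries sit well to the left of the control libraries, and the control means run from 5680 CPM per kilobase for Serpina3k to 0.0337 for Serpina3b.

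Across the family, 3 of the 39 tested members passed the test: Serpina3m and Serpina5 rose in knockout livers and Serpine2 fell. Over all 14861 tested genes 5.39% passed, 3.51% higher and 1.88% lower in the knockout, so the members' share of calls was near that of the whole table. The median log2 fold change of the tested members was 0.10, against −0.01 over all tested genes. Of the members 25 lay above 0 and 14 below, against 7193 and 7668 of the 14861 tested genes. The lists of related genes given below have the same background over all tested genes. Knockout and control libraries did not overlap for 8 of the 39 members, against 15.1% of all tested genes, and 10 members had an unadjusted p under 0.05, against 21.5% of all tested genes. By clade, 2 of 23 tested clade A genes rose (median log2 fold change 0.21), none of 6 tested clade B genes passed (median 0.08) and 1 of 3 clade E genes fell (median 0.13). The single tested genes of clades C, D, G, H and I and both of clade F did not pass; at an unadjusted p under 0.05 there were 6 clade A genes, 2 of the 3 clade E genes, 1 clade B gene (Serpinb1a) and 1 clade F gene (Serpinf2), and none in clades C, D, G, H and I. With DESeq2, which called 11.3% of the genes it tested, 8 of the 39 members passed, 5 higher and 3 lower; Serpina3m, Serpina5, Serpina7 and Serpinb1a were among the higher, and Serpine2, Serpinf2 and Serpina1e were the lower. With limma voom with quality weights 5 passed, against 9.65% of all tested genes. With the library number as a block, which called 6.92% of all tested genes, 4 passed: Serpina5 and Serpinb1a higher, and Serpine2 and Serpinf2 lower. Scaling by total counts alone shifted all genes by −0.113 at the median (log2); the median of the members was then −0.01 and 19 of them lay above 0.

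**Figure D2:**
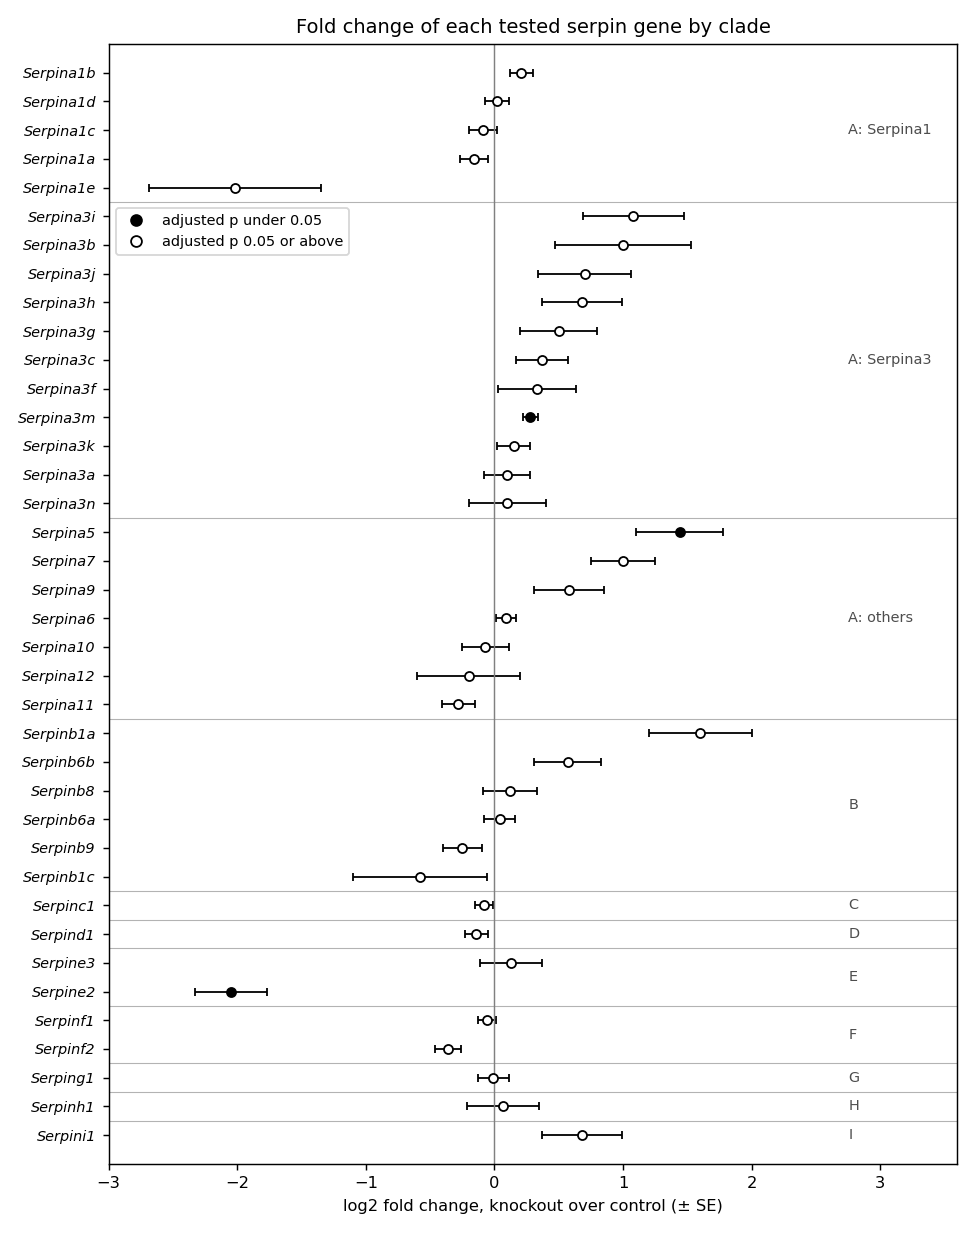
Log2 fold change, knockout over control, with its SE for 38 of the 39 tested serpin genes grouped by clade; filled symbols mark adjusted p under 0.05 and open symbols the other genes. Filled symbols are Serpina3m at 0.28 and Serpina5 at 1.44 to the right of 0 and Serpine2 at −2.05 to the left, and Serpina1e lies as far left as Serpine2 with a wider SE of 0.67.

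Clade E serpins inhibit serine proteases in the tissue and at cell surfaces. Serpine2 (chromosome 1, 79794197 to 79861180, minus strand), which encodes protease nexin-1, an inhibitor of thrombin and urokinase, had 0.817, 0.611, 1.16 and 1.10 CPM in knockout libraries 1 to 4, against 2.46, 5.31, 3.32 and 4.23 CPM in control libraries 1 to 4. All knockout libraries were low and the groups did not overlap. The mean was 0.922 ± 0.256 CPM in knockout livers, 24.1% of the 3.83 ± 1.22 CPM in control livers, with a log2 fold change of −2.05 (SE 0.28, adjusted p = 0.00646). Serpine2 passed in all 18 fits run, with adjusted p at most 0.0253, and is the member whose call did not depend on a library or setting among those. In whole liver, fewer cells of a type and less RNA per cell cannot be told apart. Beside Serpine2, the summed level of 6 cholangiocyte markers was 30.4 to 44.9 CPM in knockout libraries against 42.2 to 57 CPM in control libraries. These groups overlapped. Of the 6 markers 0 rose past the threshold and only 1, Sox9, fell (5.17 ± 1.98 against 11.7 ± 1.68 CPM, log2 fold change −1.18, adjusted p = 0.0242). No marker of that list was at 0 throughout. The summed levels of 7 stellate cell and fibroblast markers (261 to 406 against 220 to 335 CPM) and of 6 endothelial markers (144 to 205 against 143 to 200 CPM) overlapped between knockout and control libraries, with 0 of either list past the threshold. The part of these cell types in the Serpine2 result was not tested.

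Serpine3, whose gene overlaps Ints6 on the opposite strand, had 0.393, 0.340, 0.499 and 0.480 CPM in knockout libraries, against 0.397, 0.498, 0.344 and 0.328 CPM in control libraries 1 to 4, and the groups overlapped (log2 fold change 0.13, SE 0.24, adjusted p = 0.797).

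The proteases and cofactors of fibrinolysis, which alpha-2-antiplasmin and other serpins hold in check, gave no call by edgeR among 10 tested genes, 3 of them with an unadjusted p under 0.05; DESeq2 called 2 higher and 1 lower, and limma voom and the block 1 lower each. Their median log2 fold change was 0.13 with 8 of 10 above 0. Plasminogen (Plg) averaged 2000 CPM in knockout livers and 2520 CPM in control livers (−0.34, adjusted p = 0.1), and the urokinase receptor gene Plaur 0.513 ± 0.129 and 0.246 ± 0.0989 CPM (1.06, adjusted p = 0.11). Anxa2 averaged 17.9 ± 6.28 CPM in knockout livers and 10.7 ± 1.93 CPM in control livers (0.75, adjusted p = 0.105). Its groups did not overlap.

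**Figure D3:**
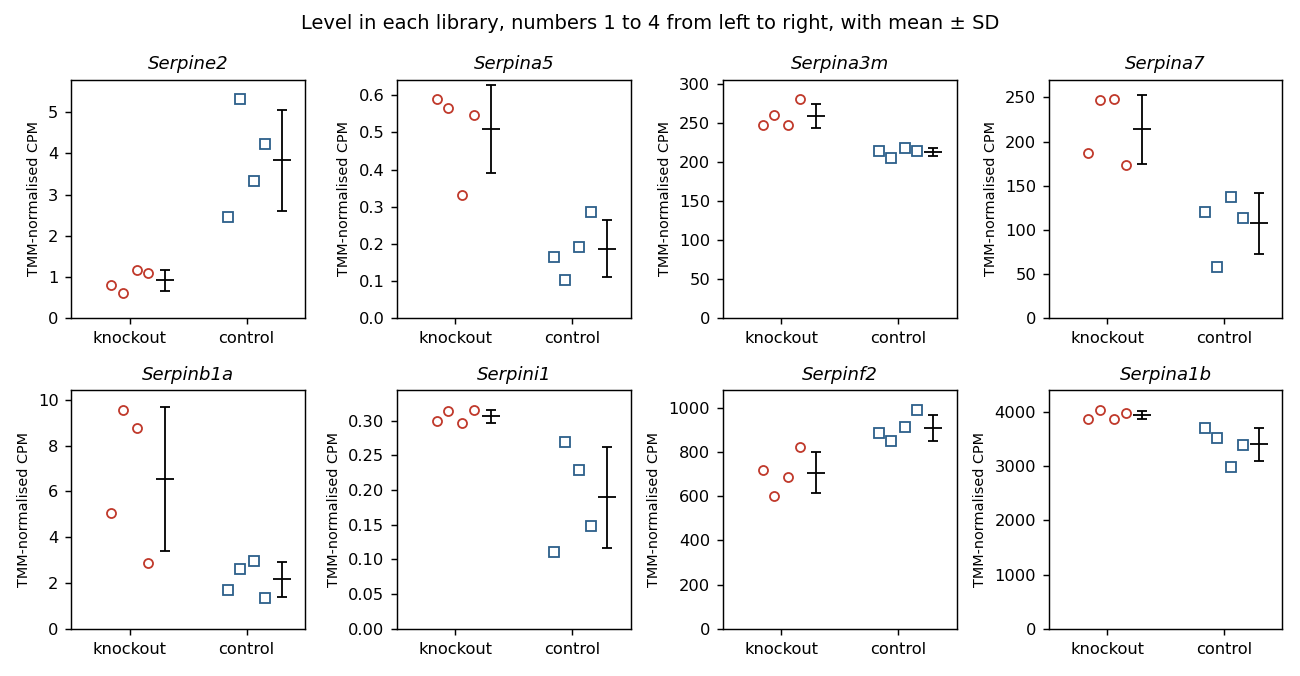
TMM-normalised CPM of 8 serpin genes in each library, knockout (circles) left of control (squares), with mean ± SD (n = 4 each); the vertical axes start at 0. The knockout and control symbols do not overlap for Serpine2, Serpina5, Serpina3m, Serpina7, Serpinf2, Serpini1 and Serpina1b, and overlap for Serpinb1a.

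In the Serpina1 group the largest difference was in Serpina1e. The copies differ in the stretch that encodes the reactive centre loop, and which proteases each copy inhibits was not examined. Serpina1e (chromosome 12, 103946931 to 103958975, minus strand) had 2695, 546.7, 551.6 and 3781 CPM in knockout libraries 1 to 4, against 6087, 7443, 7869 and 9376 CPM in control libraries 1 to 4. Every knockout library lay below every control library, and knockout libraries 2 and 3 were much lower than knockout libraries 1 and 4. With that spread among the knockout libraries the log2 fold change of −2.02 (SE 0.67) did not pass (adjusted p = 0.137), while DESeq2 gave adjusted p = 0.0182. It ranged from −2.60 to −1.72 when each library was left out in turn, with adjusted p from 0.0901 to 0.214. Knockout livers averaged 1890 ± 1610 CPM, against 7690 ± 1350 CPM in control livers.

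None of the other tested copies passed. Serpina1b had 3878, 4035, 3877 and 3982 CPM in knockout libraries 1 to 4, against 3707, 3523, 2979 and 3399 CPM in control libraries 1 to 4, all knockout libraries being slightly higher (log2 fold change 0.21, SE 0.09, adjusted p = 0.186). Serpina1c had 2010, 1902, 1720 and 1953 CPM in knockout libraries, against 2361, 2108, 1701 and 1896 CPM in control libraries (−0.09, SE 0.11, adjusted p = 0.681). Its groups overlapped, and so did those of the next copies. Serpina1d had 1938, 1719, 1797 and 1934 CPM in knockout libraries, against 2054, 1807, 1594 and 1844 CPM in control libraries (0.02, SE 0.09, adjusted p = 0.931). Serpina1a had 893.2, 823.7, 806.3 and 1019 CPM in knockout libraries, against 1048, 1021, 825.1 and 1065 CPM in control libraries (−0.16, SE 0.11, adjusted p = 0.428). Serpina1f, the most divergent copy, had 2 counts in all and was not tested.

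The summed Serpina1 level was 11410, 9026, 8752 and 12670 CPM in knockout libraries 1 to 4, against 15260, 15900, 14970 and 17580 CPM in control libraries 1 to 4. The ratio of knockout to control means was 0.657, and without Serpina1e it was 1.04. Serpina1e took 23.6%, 6.06%, 6.30% and 29.8% of the group's counts in knockout libraries 1 to 4, against 39.9%, 46.8%, 52.6% and 53.3% in control libraries 1 to 4. Serpina1b took 31.4% to 44.7% of them in knockout libraries and 19.3% to 24.3% in control libraries. The share of a copy depends on how shared reads were assigned, which cannot be told from the table. Among the knockout libraries, number 4 and then number 1 were the highest in Serpina1e. The same held for the summed acute phase genes given with the Serpina3 group. Control library 4 was likewise the highest control in both. In control libraries 1 to 3 the orders were opposite: Serpina1e had 6087, 7443 and 7869 CPM, the acute phase sum 2965, 2412 and 1876 CPM. The part of the acute phase genes in the Serpina1e values was not tested. Without both number 4 libraries the log2 fold change of Serpina1e was −2.50 (adjusted p = 0.154).

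**Figure D4:**
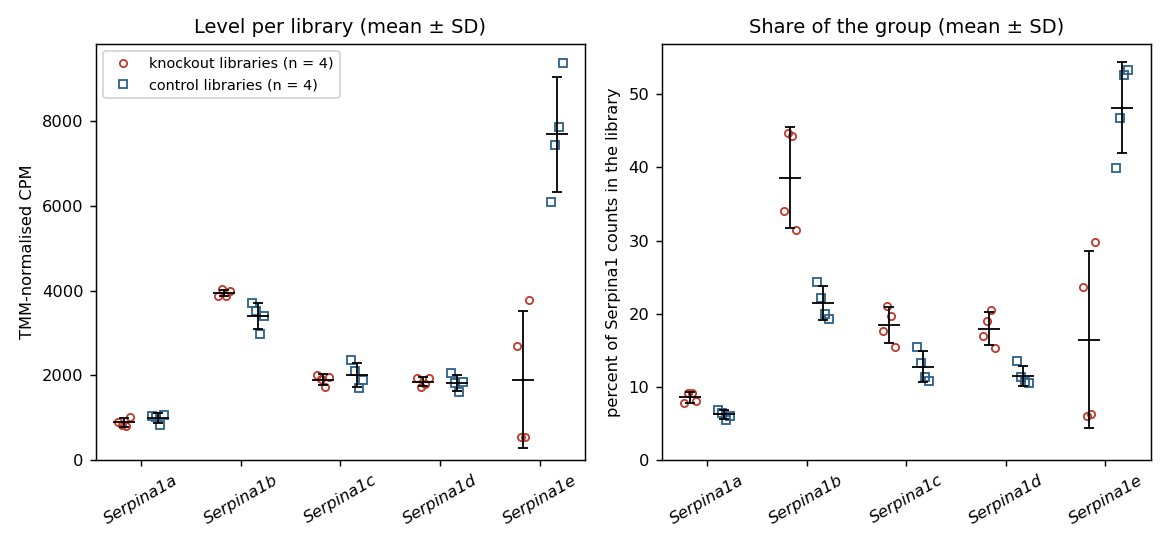
Left, TMM-normalised CPM of Serpina1a to Serpina1e in each knockout (circles) and control (squares) library with mean ± SD (n = 4 each); right, the percent of the library's Serpina1 counts that each gene took. Serpina1e falls below all controls in each knockout library on both axes, at 546.7 to 3781 CPM against 6087 to 9376 CPM. Each of the other copies differs less between knockout and control in CPM, with Serpina1b slightly higher in every knockout library.

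In the Serpina3 group, relatives of the human antichymotrypsin gene, 1 of 11 members rose in knockout livers. Serpina3m (chromosome 12, 104338486 to 104394257, plus strand) had 247.2, 260.9, 248.1 and 280.4 CPM in knockout libraries 1 to 4, against 213.7, 205.5, 217.7 and 214.1 CPM in control libraries 1 to 4. The groups did not overlap, and the control libraries lay close together. The mean was 259 ± 15.5 CPM in knockout livers and 213 ± 5.16 CPM in control livers (log2 fold change 0.28, SE 0.06, adjusted p = 0.0363). The call was lost with the library number as a block (adjusted p = 0.0512), with scaling by total counts (0.17, adjusted p = 0.123), without both number 4 libraries (adjusted p = 0.104) and in 7 of 8 fits that left out 1 library (adjusted p up to 0.092), and held without control library 3. The annotated span of Serpina3m contains that of Serpina3k on the same strand, and Serpina3k was far more abundant.

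Serpina3k (chromosome 12, 104338486 to 104346144, plus strand) had 11420, 9402, 8871 and 11960 CPM in knockout libraries 1 to 4, against 9379, 9193, 7901 and 11080 CPM in control libraries 1 to 4. Its groups overlapped (log2 fold change 0.15, SE 0.13, adjusted p = 0.562), and it made up 93.1% to 94.9% of the group's counts in knockout libraries and 93.6% to 94.7% in control libraries. Serpina3n, an inhibitor of granzyme B in the mouse and an acute phase gene, had 344.3, 283.1, 300.9 and 580.5 CPM in knockout libraries, against 340.0, 294.5, 242.0 and 534.4 CPM in control libraries. The number 4 library was the highest in both groups and the groups overlapped (log2 fold change 0.10, SE 0.30, adjusted p = 0.881); without knockout library 4 the value was −0.19.

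The remaining 8 Serpina3 genes averaged under 6 CPM in both groups, with log2 fold changes from 0.10 (Serpina3a) to 1.08 (Serpina3i) and none past the threshold. The annotation lists Serpina3h among them as a transcribed pseudogene. The median of the 11 was 0.37, against −0.01 over all tested genes, and all 11 lay above 0. Without knockout library 4 the median was 0.19 and 9 lay above 0, and without both number 4 libraries it was 0.25 with 10 above 0. With total counts it was 0.26 with 9 above 0, and with limma voom 0.26 with 10 above 0. Serpina3 genes share reads and libraries, so their directions are not independent. Knockout library 4 was the highest knockout library for 10 of the 11 genes and control library 4 the highest control for 8. The summed level of 7 acute phase genes (Saa1, Saa2, Saa3, Orm1, Orm2, Lcn2 and Hp) was 3587, 2904, 2850 and 7678 CPM in knockout libraries 1 to 4, against 2965, 2412, 1876 and 7195 CPM in control libraries 1 to 4, and its part in the Serpina3 values was not tested. Of 25 acute phase proteins and regulators none passed with edgeR or limma voom, 3 had an unadjusted p under 0.05, DESeq2 called 1 lower, and the block on library number gave 2 higher and 3 lower. The summed Serpina3 level was 12030, 9958, 9431 and 12840 CPM in knockout libraries against 9946, 9703, 8373 and 11850 CPM in control libraries, a ratio of 1.11, and 1.13 without Serpina3k.

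**Figure D5:**
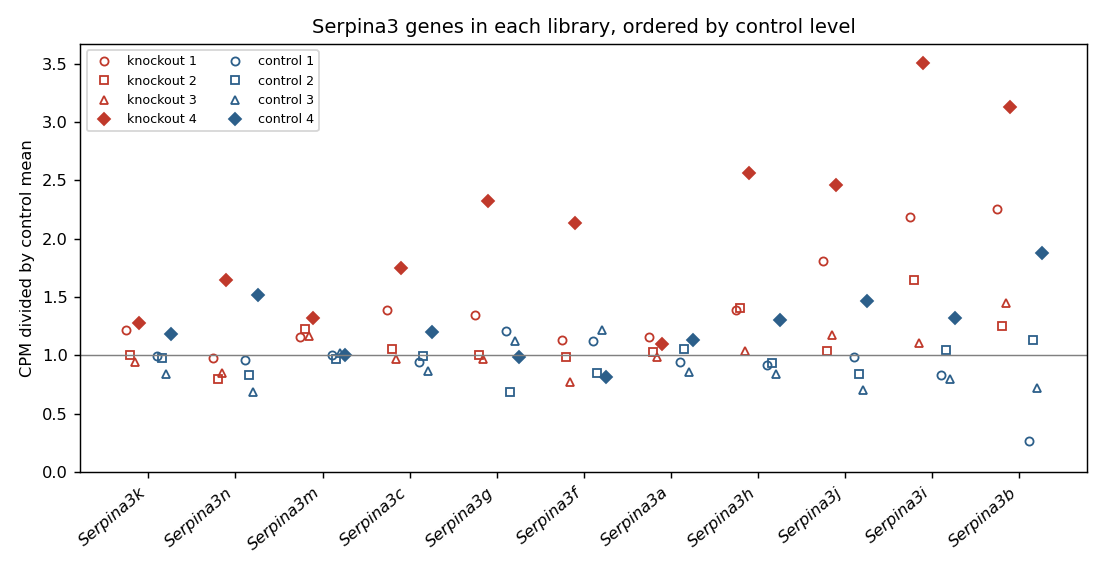
CPM of the 11 Serpina3 genes in each library divided by the gene's mean in control libraries, knockout left of control for each gene and the number 4 library of each group filled. Knockout library 4 is the highest of all 8 libraries for 10 of the 11 genes, and the knockout libraries of Serpina3m all sit above its controls.

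The other clade A genes include carriers of hormones and inhibitors in coagulation, and 1 of 7 tested rose. Serpina5 (chromosome 12, 104101113 to 104106137, plus strand), which encodes protein C inhibitor, had 0.589, 0.567, 0.333 and 0.548 CPM in knockout libraries 1 to 4, against 0.166, 0.103, 0.193 and 0.287 CPM in control libraries 1 to 4. The groups did not overlap, although knockout library 3 lay close to control library 4. The mean was 0.509 ± 0.119 CPM in knockout livers and 0.187 ± 0.0766 CPM in control livers (log2 fold change 1.44, SE 0.34, adjusted p = 0.0417). The call was lost in 7 of 8 fits without 1 library (adjusted p up to 0.112), held without control library 4, and was lost without both number 4 libraries (1.68, adjusted p = 0.0606). In humans the liver secretes this inhibitor into plasma, while in the mouse it is known mainly from reproductive organs.

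Serpina7 (chromosome X, 139079257 to 139085236, minus strand) encodes the thyroxine-binding globulin and was looked at after its values were seen. It had 187.6, 246.6, 247.7 and 173.5 CPM in knockout libraries 1 to 4, against 120.7, 57.8, 136.9 and 113.6 CPM in control libraries 1 to 4. All knockout libraries lay above all controls, and control library 2 was the lowest. The log2 fold change of 1.00 (SE 0.25, adjusted p = 0.0587) did not pass, but passed with DESeq2 (adjusted p = 0.000677), with limma voom (0.0271) and without control library 2 (0.79, adjusted p = 0.0308). With the block the adjusted p was 0.113, and without both number 4 libraries it was 0.123. Serpina7 did not pass in 7 of 8 fits that left out 1 library (adjusted p up to 0.148). The other hormone carrier, the corticosteroid-binding globulin gene Serpina6, averaged 128 ± 8.46 CPM in knockout livers and 120 ± 10.9 CPM in control livers (log2 fold change 0.09, SE 0.08, adjusted p = 0.571). Serpina10, which encodes the protein Z-dependent inhibitor of factor X, averaged 147 ± 21.9 CPM against 154 ± 40.9 CPM (−0.07, adjusted p = 0.865). Serpina9, Serpina11 and Serpina12 had log2 fold changes of 0.58, −0.28 and −0.20 with adjusted p of 0.252, 0.237 and 0.817.

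Clade B serpins guard cells against their own granule and lysosomal proteases. Of the 28 clade B genes, 15 had no count in any library and 6 were tested. Serpinb9, known in the mouse as an inhibitor of granzyme B, had 9.44, 7.61, 9.18 and 11.2 CPM in knockout libraries 1 to 4, against 12.7, 8.58, 12.1 and 11.3 CPM in control libraries 1 to 4, with overlapping groups (log2 fold change −0.25, SE 0.15, adjusted p = 0.353). Serpinb6a, which inhibits cathepsin G and overlaps Nqo2, Ripk1 and 1110046J04Rik on the opposite strand, had 5.65, 4.95, 5.68 and 6.98 CPM in knockout libraries, against 5.37, 5.34, 5.98 and 5.98 CPM in control libraries (0.04, SE 0.12, adjusted p = 0.887). Serpinb6b and Serpinb8 had log2 fold changes of 0.57 and 0.12 and Serpinb1c one of −0.58, none past the threshold.

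Serpinb1a (chromosome 13, 32842092 to 32851185, minus strand), an inhibitor of neutrophil elastase, proteinase 3 and cathepsin G that was also looked at after its values were seen, had 5.05, 9.55, 8.77 and 2.88 CPM in knockout libraries 1 to 4, against 1.70, 2.62, 2.98 and 1.35 CPM in control libraries 1 to 4. Only control library 3 exceeded the lowest knockout library, and within every number the knockout library was the higher. The log2 fold change of 1.60 (SE 0.40, adjusted p = 0.0569) did not pass, but passed with the library number as a block (1.53, adjusted p = 0.00231), with DESeq2 (adjusted p = 0.000195), without knockout library 4 (1.85, adjusted p = 0.0213) and without both number 4 libraries (1.68, adjusted p = 0.0302). Serpinb1a did not pass with limma voom (adjusted p = 0.0554) or total counts (0.0507). It also failed in 7 of 8 fits that left out 1 library (adjusted p up to 0.139). Summed neutrophil markers were 53.3, 0.340, 0.289 and 21.7 CPM in knockout libraries 1 to 4, against 3.27, 0.292, 0.193 and 9.19 CPM in control libraries 1 to 4, and were lowest in libraries 2 and 3 of each group, where Serpinb1a was highest. None of the 5 tested neutrophil markers passed, and the part of neutrophils in the Serpinb1a values was not tested. Of 12 genes of leukocyte granule proteins, which beside proteases include the peroxidase gene Mpo and the gene of the pore-forming perforin, Prf1, 6 were tested and none passed with edgeR, with all 6 above 0 (median log2 fold change 0.81) and 1, Prf1, at an unadjusted p under 0.05 (1.33, adjusted p = 0.0861). The highest value of the list was that of Mpo (1.44, adjusted p = 0.698), and neither Mpo nor Prf1 encodes a protease. DESeq2, limma voom and the block each called 1 of the list higher. Of 8 cathepsins none passed with edgeR, 2 had an unadjusted p under 0.05 and DESeq2 called 1 higher, limma voom and the block none (median 0.19).

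Neither the clade C and D genes nor those of clade F, which include inhibitors of thrombin and of plasmin, passed the test. Serpinc1, which encodes antithrombin and whose annotated span overlaps Zbtb37 on the opposite strand, had 1847, 1822, 1785 and 1723 CPM in knockout libraries 1 to 4, against 1993, 1933, 1742 and 1934 CPM in control libraries 1 to 4 (log2 fold change −0.08, SE 0.07, adjusted p = 0.556). Serpind1, which encodes heparin cofactor II, had 438.9, 393.4, 408.3 and 506.2 CPM in knockout libraries, against 476.0, 487.8, 477.0 and 488.6 CPM in control libraries (−0.14, SE 0.09, adjusted p = 0.369). Knockout library 4 was the exception that lay above the controls. Serpinf2 (chromosome 11, 75431732 to 75439591, minus strand), which encodes alpha-2-antiplasmin, had 717.1, 601.0, 685.2 and 821.6 CPM in knockout libraries, against 884.3, 850.8, 911.7 and 988.8 CPM in control libraries. All knockout libraries lay below the controls, with a log2 fold change of −0.36 (SE 0.10) that did not pass (adjusted p = 0.0698). It passed with the block (adjusted p = 0.0297), DESeq2 (0.0236), limma voom (0.0276), total counts (−0.48, adjusted p = 0.0207) and without knockout library 4 (−0.44, adjusted p = 0.0332). Serpinf2 did not pass in 7 of 8 fits that left out 1 library (adjusted p up to 0.173), or without both number 4 libraries (adjusted p = 0.0576). Its neighbour Serpinf1, which encodes the anti-angiogenic pigment epithelium-derived factor, had 533.4, 504.3, 513.4 and 464.5 CPM in knockout libraries, against 557.8, 522.2, 501.3 and 517.0 CPM in control libraries (−0.06, SE 0.07, adjusted p = 0.68). Of 10 coagulation and contact proteases that plasma serpins inhibit, none passed with edgeR or DESeq2 and 3 had an unadjusted p under 0.05; limma voom and the block called 1 lower each, 9 of the 10 lay below 0 and the median log2 fold change was −0.12.

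Serping1 (chromosome 2, 84765387 to 84775444, minus strand), which encodes C1 inhibitor, had 872.7, 704.4, 727.7 and 933.1 CPM in knockout libraries 1 to 4, against 833.3, 728.5, 739.4 and 959.2 CPM in control libraries 1 to 4. The groups overlapped throughout, with a log2 fold change of −0.01 (SE 0.12, adjusted p = 0.972). The 6 complement proteases that it inhibits all lay below 0 (median log2 fold change −0.24), none passed with edgeR and 3 had an unadjusted p under 0.05; DESeq2, limma voom and the block each called 1 lower. C1s1 averaged 517 CPM in knockout livers and 622 CPM in control livers (−0.26, adjusted p = 0.0836), and C1ra 191 and 244 CPM (−0.35, adjusted p = 0.0958).

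Serpinh1 (chromosome 7, 99345376 to 99353239, minus strand) encodes HSP47, the collagen chaperone of the endoplasmic reticulum. It had 13.0, 16.4, 15.0 and 12.5 CPM in knockout libraries 1 to 4, against 8.68, 22.3, 9.56 and 13.4 CPM in control libraries 1 to 4. Control library 2 was the highest and the groups overlapped (log2 fold change 0.07, SE 0.28, adjusted p = 0.903), with −0.04 under total counts. Of 20 collagen genes and collagen-modifying enzymes 1 passed, the lysyl hydroxylase gene Plod3 (42.1 ± 1.25 CPM in knockout livers against 31.9 ± 1.9 CPM in control livers, log2 fold change 0.40, SE 0.06, adjusted p = 0.0111), and 18 of the 20 lay above 0 (median 0.36). With the block 2 of them were higher. Serpini1, which encodes neuroserpin, an inhibitor of tissue plasminogen activator, had 0.299, 0.314, 0.297 and 0.315 CPM in knockout libraries, against 0.111, 0.269, 0.229 and 0.148 CPM in control libraries. The groups did not overlap (log2 fold change 0.68, SE 0.31, adjusted p = 0.235), and Serpini2, the pancreatic member of the clade, had no count in any library.

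Serpin-protease complexes leave plasma through receptors of the LDL receptor family, and unfolded serpins are handled by the endoplasmic reticulum. Of 10 listed clearance receptors 2 passed, against 5.39% of all tested genes. The list also holds receptors outside the LDL receptor family, such as Asgr2. Whether each listed receptor takes up serpin complexes was not examined. Lrp2, the gene of the endocytic receptor megalin, had 4.35, 3.12, 4.88 and 3.86 CPM in knockout libraries 1 to 4, against 1.87, 1.41, 1.40 and 1.64 CPM in control libraries 1 to 4 (log2 fold change 1.36, SE 0.17, adjusted p = 0.00466). Asgr2, a subunit of the asialoglycoprotein receptor, had 103.9, 113.3, 112.7 and 116.7 CPM in knockout libraries, against 162.1, 156.6, 142.4 and 156.7 CPM in control libraries (−0.47, SE 0.07, adjusted p = 0.00754). For neither did the groups overlap, and both passed in all 18 fits. Lrp1, the main receptor of the complexes in hepatocytes, did not pass (1470 ± 166 CPM in knockout livers and 1800 ± 142 CPM in control livers, −0.29, adjusted p = 0.136).

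Of 26 genes of secretory protein quality control 4 passed, against 5.39% of all tested genes. Lman1, which encodes a cargo receptor that carries human alpha-1-antitrypsin out of the endoplasmic reticulum, averaged 382 ± 13.8 CPM in knockout livers and 289 ± 36.4 CPM in control livers (log2 fold change 0.40, SE 0.09, adjusted p = 0.0385). Derl1 and the stress sensor gene Atf6 also rose, by 0.29 (adjusted p = 0.038) and 0.32 (adjusted p = 0.0433) on the log2 scale, and Os9, which like Derl1 takes part in the degradation of misfolded proteins, fell (−0.31, adjusted p = 0.035). The median of the list was 0.02. Under total counts the calls of Lman1, Derl1 and Atf6 were lost (adjusted p = 0.0697, 0.113 and 0.129), and without both number 4 libraries so were all 4 (0.0857 for Lman1, 0.0584 for Derl1, 0.133 for Atf6 and 0.0715 for Os9). With 1 library left out, Atf6 was lost in all 8 fits (adjusted p up to 0.121), Derl1 in 7 (up to 0.116, held without control library 4), Lman1 in 6 (up to 0.109, held without control library 2 or 3) and Os9 in 6 (up to 0.106, held without control library 3 or knockout library 4). Atf6 was also lost with no count filter (adjusted p = 0.0553). Of 25 genes listed as other protease inhibitors, which include the serpin gene Agt, 1 passed, against 5.39% of all tested genes. The Kunitz inhibitor gene Spint2 fell (41.0 ± 4.13 CPM in knockout livers against 60.6 ± 10.2 CPM in control livers, −0.56, SE 0.12, adjusted p = 0.0307). Its call was lost in 6 of 8 fits without 1 library (adjusted p up to 0.0928), and held without control library 3, without knockout library 4 and without both number 4 libraries (adjusted p = 0.0347). Agt, which encodes the non-inhibitory serpin angiotensinogen but carries no Serpin symbol, had 478.0, 530.5, 483.4 and 408.8 CPM in knockout libraries, against 453.3, 498.7, 422.2 and 431.4 CPM in control libraries (0.07, SE 0.09, adjusted p = 0.689). Of 10 hepatocyte transcription factors, which drive many of the liver-specific serpins, none passed with edgeR, DESeq2 or limma voom, 2 had an unadjusted p under 0.05 and the median was −0.03, with 1 lower under the block.

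ZFP36L1 binds AU-rich elements in 3′ UTRs, so the longest annotated 3′ UTRs were searched on the transcript strand for UAUUUAU, a core of such elements. Of 38 tested members with a 3′ UTR of at least 20 bases, 6 (15.8%) held it, against 4078 of 13707 tested genes (29.8%), and the median 3′ UTR length was 715 bases for the members and 1155 for all tested genes. The 3 members that passed the test held none. The match in the antithrombin gene Serpinc1, the most abundant member with one, and that in the collagen chaperone gene Serpinh1 are shown, with the motif in capitals (mm10, chr1:161003928-161003957 on the plus strand in exon 8 of Serpinc1 and chr7:99345809-99345838 on the minus strand in exon 5 of Serpinh1).
Serpinc1: cuauauauaggUAUUUAUaguuaaggucac
Serpinh1: aucaguguucaUAUUUAUggccaggcauuc
The annotated Serpinc1 3′ UTR searched has 3400 bases, and its match starts at base 1476. The deposited gene length of Serpinc1 is shorter, at 2161 bases. Whether the counted Serpinc1 RNA holds this match was not tested. Serpini1 (2 matches), Serpinb8 and Serpinb9 also held the motif. The log2 fold changes of these 5 genes ran from −0.25 (Serpinb9) to 0.68 (Serpini1). None of them passed with edgeR, DESeq2 or limma voom, and none had an unadjusted p under 0.05.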

How the data were processed

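RNA from 8 liver libraries, 4 knockout and 4 control, was analysed. The authors deposited raw counts by gene symbol, with gene lengths, in 1 table. The build was mm10, per the submitters' processing notes. What aligner, counter and strand setting were used, and how reads matching several genes were treated, is not given in the sources used here. Between 67.4% and 70.8% of the values from 1 to 20 were even, so 1 alternative used counts divided by 2.

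Genes were filtered with filterByExpr (14861 of 25239 kept), scaled by TMM and tested over the whole table with edgeR 4.0.16 in R 4.3.3 (quasi-likelihood test, robust, 6 residual degrees of freedom before moderation, biological coefficient of variation 0.204). SE is the absolute log2 fold change over the square root of F and approximate. DESeq2 1.42.0, limma 3.58.1 and other scalings and filters were alternatives. The members and lists were chosen with earlier results of these data known. The genes given in full were members past the threshold, the 12 highest in control liver, the 2 highest of each clade and some fixed by name, of which 1 is not reported here; Serpina7 and Serpinb1a were chosen once their values were known. Of the lists, members past the threshold are named. In some lists a few others are named too, mostly those with the lowest p, which is a choice made after seeing values.

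Deviations from the group means correlated over genes between libraries of the same number (0.17, 0.39, 0.31 and 0.4 for numbers 1 to 4). Correlations between different numbers are not given here. A pairing by number would rest on the data alone, so the block on library number was run as an alternative. The main test used the group alone, without a block. Positions, coding sequences and 3′ UTRs came from GENCODE M21 by symbol, and alignments from mafft 7.526. The fits were tested on simulated data.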

Additional observations from a re-analysis of the deposited data

Results flagged for a closer look

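Serpina5 in knockout library 3 had 0.333 CPM, while the other knockout libraries had 0.548 to 0.589 CPM. Its gap to the nearest library was 0.837 of the group's whole range, above Dixon's 95% critical value of 0.829 for 4 samples. It was the 1 such value among 90 groups of 4 libraries examined, and chance gives about 1 in 20. Serpina5 without knockout library 3 had a log2 fold change of 1.59 (adjusted p = 0.0596, edgeR).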

How the results depend on the processing

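Serpine2 kept its call in all 18 fits. The number of members called higher, 2 in the report, was 1 with total counts, 5 with DESeq2, 1 without both number 4 libraries (chosen after seeing the data) and 0 to 1 with 1 library left out. The number called lower, 1 in the report, was 2 with total counts, 3 with DESeq2, 2 with limma voom, 2 with the replicate block and 1 to 2 with 1 library left out. The block on library number ended the Serpina3m call and added Serpinb1a and Serpinf2. Over the whole table, 983 genes were higher and 685 lower with DESeq2, 830 and 604 with limma voom, 1338 lower with total counts, 345 and 98 without both number 4 libraries, and 169 to 583 and 42 to 384 with 1 library left out. Over the related lists, with 5 higher and 3 lower, the numbers were 2 and 15 with total counts, 10 and 7 with DESeq2, 8 and 7 with limma voom, 9 and 11 with the block, 3 higher without both number 4 libraries, and 2 to 4 and 1 to 5 with 1 library left out. The cause was not tested. The Serpina1 ratio of 0.657 was 1.04 without Serpina1e (added after seeing the data) and 0.611 to 0.693 with 1 library left out.

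Of 652 alternative values of the tested members, 587 kept direction and side of the threshold, 16 gained a call, 18 lost one and 31 turned sign; the turned ones were in 11 members, none of them called. With total counts Serpina1d was −0.10, Serpina3n −0.01, Serpina6 −0.02, Serpinh1 −0.04, Serpinb6a −0.08, Serpina3a −0.01 and Agt −0.04. With limma voom Serpina1d was −0.03 and Serpina3n −0.07, and with DESeq2 size factors Serping1 was 0. Without both number 4 libraries Serpina1d, Serping1 and Serpine3 were 0, Serpina10 0.03, Serpinb6a −0.04 and Serpina3f −0.14. With 1 library left out the log2 fold change ran from −0.04 to 0.08 for Serpina1d, −0.08 to 0.08 for Serping1, −0.19 to 0.37 for Serpina3n, −0.17 to 0.13 for Serpina10, −0.09 to 0.43 for Serpinh1, −0.06 to 0.11 for Serpinb6a, −0.05 to 0.51 for Serpina3f and −0.87 to 0.03 for Serpinb1c. Members under 1 CPM rest on few counts, and how reads were split among copies of Serpina1 and Serpina3 limits single-gene values.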

Other observations

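Serpina4-ps1, a pseudogene of the family whose symbol falls outside the pattern used here, had 63.9, 447.3, 42.8 and 129.4 CPM in knockout libraries 1 to 4, against 84.1, 60.7, 61.1 and 145.3 CPM in control libraries 1 to 4. Knockout library 2 was the highest of all 8 and the groups otherwise overlapped (log2 fold change 0.96, adjusted p = 0.51, edgeR). The value rested on that library: without it the log2 fold change was −0.16 (adjusted p = 0.88), and with limma voom, which weights libraries, it was −0.16 (adjusted p = 0.91).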
